A study of Mus musculus with 18 samples.

Results

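Bone morphogenetic protein (BMP) signalling was followed in 10 genes, Bmp2, Bmp4, Grem1, Nog, Bmpr1a, Bmpr2, Smad6, Id1, Id2 and Id3, which were found by symbol among the 24455 genes counted for 168FARN and the 24532 counted for LLC1. Both lines are murine: 168FARN came from the breast and LLC1 is Lewis lung cancer. RNA was sequenced from GFP-tagged cancer cells that had been sorted out of hanging-drop spheroids kept for a week. In each line, 3 libraries came from cancer cells grown alone, 3 from cells grown with fibroblasts carrying the control guide sgNS (called WT here) and 3 from cells grown with fibroblasts in which CRISPR/Cas9 and a guide against Prrx1 had deleted that gene (sgPrrx1), 18 libraries in all. The fibroblasts beside 168FARN were MMTV-CAFs, cancer-associated fibroblasts from MMTV-PyMT mice, and those beside LLC1 were wound healing fibroblasts from dorsal skin at day 10 after wounding, both at 3 fibroblasts per cancer cell. The cancer cells carried no edit, so their Prrx1 counts say nothing of the deletion, and the line and the kind of fibroblast cannot be told apart. The labels do not say that replicates came from separate cultures, so the p-values measure the spread between these libraries, which may be technical.

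BMP2 and BMP4 are secreted ligands that bind pairs of type I receptors, such as BMPR1A, and type II receptors, such as BMPR2. The receptors phosphorylate SMAD1, SMAD5 and SMAD9, which enter the nucleus with SMAD4 and switch on target genes, among which ID1, ID2 and ID3 are the classical ones. Gremlin 1 (Grem1) and noggin (Nog) bind the ligands outside the cell and block them, and SMAD6 inhibits the pathway inside the cell and is itself a BMP target. ID proteins lack a DNA-binding domain and hold E proteins, their partners among the basic helix-loop-helix factors, away from DNA, and they are known for keeping cells undifferentiated. BMP ligands and gremlin 1 are also made by fibroblasts of many tissues.

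Promoter windows were searched for letters that BMP-activated SMADs are known to bind. Of the 10 genes, 7 had an entry in the RefSeq promoter table (GRCm38.p6). The window of 250 bases before the start of Id2, the Id gene with the largest change in 168FARN, is given beside those of Grem1 and of Bmp4, a ligand. Against cells alone Grem1 moved the other way from Id2 in 168FARN, and from WT to sgPrrx1 CAFs both rose. The windows are printed with each GGCGCC match in capitals. They lie at chr12:25096093-25096342, chr2:113758649-113758898 and chr14:46390670-46390919, all on the minus strand, directly upstream of the genes' starts.
Id2: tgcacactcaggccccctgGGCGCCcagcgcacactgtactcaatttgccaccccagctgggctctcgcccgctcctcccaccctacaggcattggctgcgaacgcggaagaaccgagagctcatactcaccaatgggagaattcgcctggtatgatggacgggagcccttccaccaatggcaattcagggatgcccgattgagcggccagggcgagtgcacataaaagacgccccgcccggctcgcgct
Grem1: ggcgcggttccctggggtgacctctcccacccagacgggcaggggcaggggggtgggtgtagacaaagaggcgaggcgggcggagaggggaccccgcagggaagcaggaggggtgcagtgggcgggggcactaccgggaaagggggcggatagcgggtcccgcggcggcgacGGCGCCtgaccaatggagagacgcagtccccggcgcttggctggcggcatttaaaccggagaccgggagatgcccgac
Bmp4: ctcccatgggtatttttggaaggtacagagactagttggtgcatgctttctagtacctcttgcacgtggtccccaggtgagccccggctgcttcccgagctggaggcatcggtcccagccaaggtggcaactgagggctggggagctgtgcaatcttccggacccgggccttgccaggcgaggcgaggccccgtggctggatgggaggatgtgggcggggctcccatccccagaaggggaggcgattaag
The Id2 window held 1 GGCGCC, whose last base was 226 bases before the start, the Grem1 window 1, 73 bases before it, and the Bmp4 window none. Over both strands, 9.59% of all 32851 promoter windows of this length held GGCGCC. Bmpr1a and Bmpr2 also held 1 each, and Id3 and Smad6 none. The palindrome GTCTAGAC occurred in 0.167% of all windows and GGCGCC followed after 5 bases by GTCT in 0.07%, and neither was in any of the 7 windows. GTCTG occurred in 42.2% of all windows, and was found 2 times in that of Id3 and 1 time in that of Grem1.

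Total counts ran from 48315037 to 68933002 per library in 168FARN and from 66129117 to 103997557 in LLC1, so that 3 counts, the limit that a count of 0 allows, corresponded to 0.0426 to 0.0626 CPM (read counts scaled to library size) in 168FARN and 0.0283 to 0.0514 in LLC1. That limit covers counting error only. LLC1 sgPrrx1 replicate 3 stood apart. Its correlation with the other LLC1 sgPrrx1 libraries was 0.946 and 0.947 where they correlated at 0.989 with each other, and it held the place of 101 on the first principal component where the other LLC1 libraries held -21.1 to 3.81. Its expression relative to replicates 1 and 2 fell with transcript length, from a median log2 ratio of 0.78 in the shortest of 5 equal bins of genes to -0.91 in the longest bin. Smaller trends were seen in other LLC1 libraries, the widest in alone replicate 3, from 0.18 to -0.24. For this reason the LLC1 tests of the members are given with and without that library. In 168FARN the keratin Krt8 was at 331 CPM alone but the epithelial genes Epcam, Cdh1 and Cldn7 were at 0 to 6 counts in every library, and in LLC1 the summed epithelial markers stayed under 1 CPM.

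**Figure D1:**
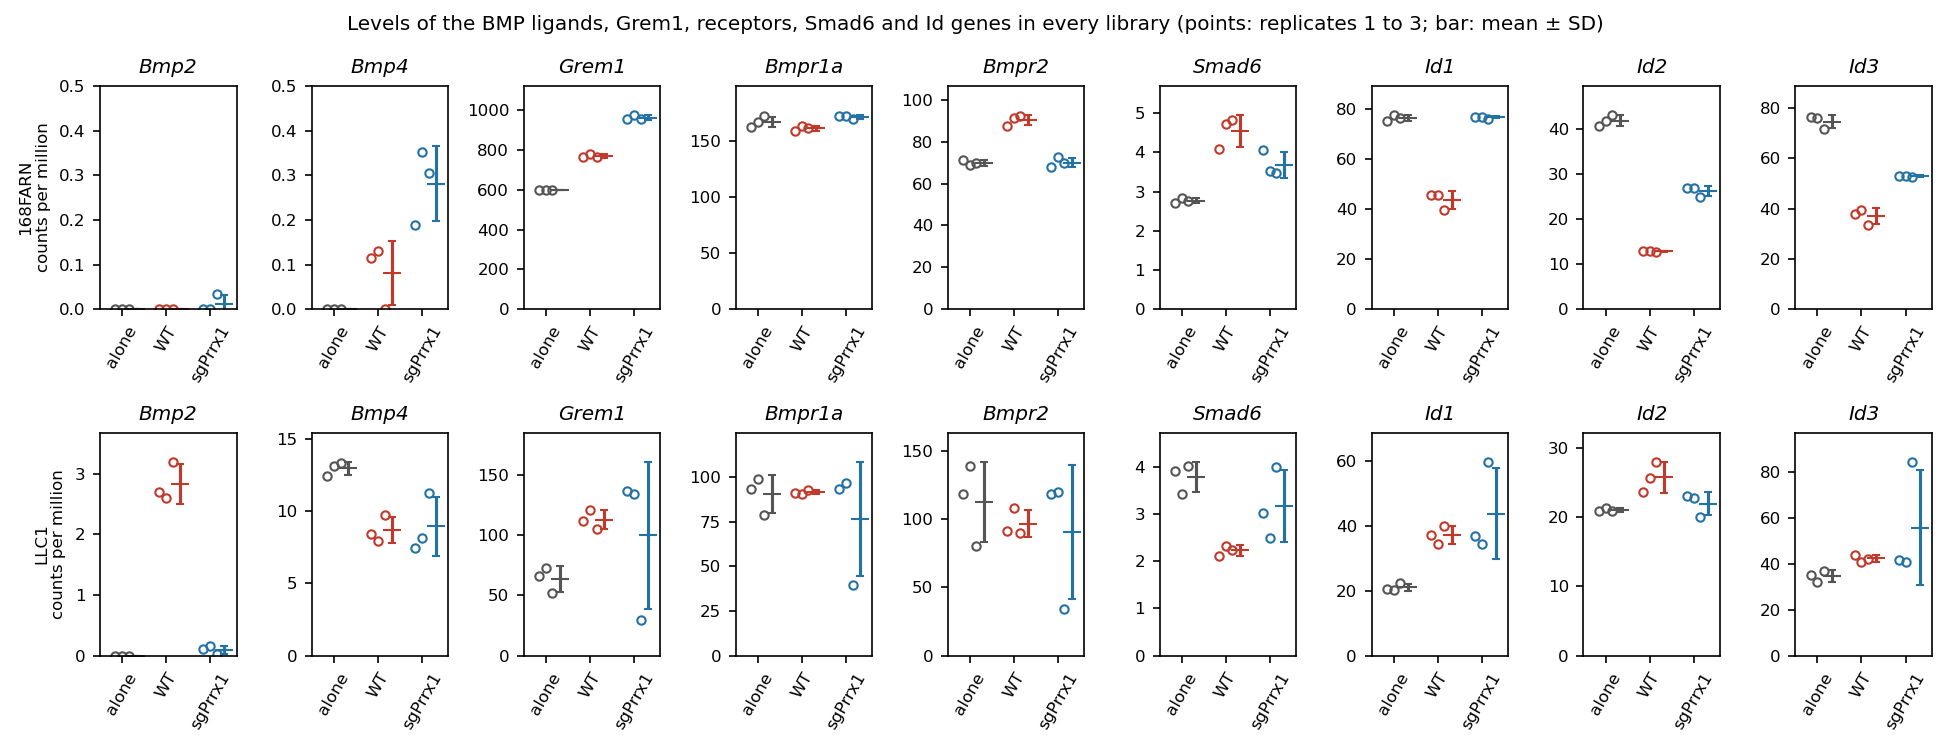
CPM of each expressed member in every library, 168FARN in the upper row and LLC1 in the lower row. Open points are replicates 1 to 3 and the bar beside them is the mean ± SD. In 168FARN, Id2 stood at 40.6 to 43.0 alone, 12.7 to 13 with WT fibroblasts and 24.9 to 26.8 with sgPrrx1 fibroblasts, and in LLC1 the third sgPrrx1 library lay far from its group for Grem1, Bmpr1a, Bmpr2, Id1 and Id3.

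Per length, the 2 cancer lines ranked these genes differently. In 168FARN grown alone, Grem1 was highest at 144 ± 0.317 CPM per kilobase of transcript (SD, n = 3), followed by Id1 at 66.0 ± 0.935, Id3 at 58.4 ± 2.03, Id2 at 32.9 ± 0.942, Bmpr1a at 28.1 ± 0.763, Bmpr2 at 20.0 ± 0.392 and Smad6 at 0.954 ± 0.0213. No neighbours in that order overlapped in their mean ± SD. In LLC1 grown alone, Bmpr2 came first at 32.2 ± 8.42, then Id3 at 27.1 ± 1.91, Id1 at 18.1 ± 1.04, Id2 at 16.6 ± 0.216, Grem1 at 15.3 ± 2.63, Bmpr1a at 15.2 ± 1.76, Bmp4 at 6.27 ± 0.227 and Smad6 at 1.31 ± 0.111. There Bmpr2 and Id3 overlapped within their SD, as did Id2, Grem1 and Bmpr1a, and Grem1 also overlapped with Id1. These per-length values take 1 transcript length a gene, which may be too short for Bmpr2.

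Grown alone, the lines differed in 8 of the 9 members tested (edgeR quasi-likelihood test, Benjamini-Hochberg adjusted p under 0.05), where 70.9% of all genes tested differed. The remaining member, Bmp2, had no count alone in either line, so its test could not call it. 168FARN was higher in Grem1 by a log2 difference of 3.13 ± 0.39 (SE), in Id1 by 1.76 ± 0.15, in Id3 by 1.00 ± 0.19, in Id2 by 0.88 ± 0.08 and in Bmpr1a by 0.79 ± 0.23. Over all genes the median log2 difference was 0.50 in the shortest bin of transcript length, which held the Id genes. It was -0.27 in the longest bin. LLC1 was higher in Bmp4, which had no count in 168FARN grown alone, and in Smad6, by a log2 difference of -0.56 ± 0.14. Bmpr2 was also called higher in LLC1, at -0.79 ± 0.32 and an adjusted p of 0.0397 by edgeR, but lost the call without any 1 of the 168FARN alone libraries and without LLC1 alone replicate 1 or 2, where the edgeR adjusted p was 0.0786 to 0.14.

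The ligands differed between the lines in which one was present. Nog (chr11:89300638-89302559, GRCm38.p6 as for all positions given) had 0 counts in all 18 libraries, so only the gremlin part of the antagonist pair was measured here. Bmp2 (chr2:133552159-133562896) was near absent in 168FARN, with 2 counts in sgPrrx1 replicate 3 and 0 in the other 8 libraries. Bmp4 (chr14:46383525-46390669) in 168FARN had 0, 0 and 0 counts alone, 8, 9 and 0 with WT CAFs and 9, 21 and 18 with sgPrrx1 CAFs. The WT libraries overlapped with those grown alone and the sgPrrx1 libraries did not. Against the limit of 3 counts per library, the mean Bmp4 level was at least 1.44-fold higher with WT CAFs (edgeR adjusted p = 0.0219) and at least 4.96-fold higher with sgPrrx1 CAFs (edgeR adjusted p = 0.00277). The WT call was lost without 168FARN alone replicate 2 (edgeR adjusted p = 0.0537), WT replicate 1 (edgeR adjusted p = 0.0569) or WT replicate 2 (edgeR adjusted p = 0.0607). Between sgPrrx1 and WT CAFs, Bmp4 did not pass the test (log2 difference 1.67 ± 0.68, edgeR adjusted p = 0.06). At 0.281 CPM in its highest group, this ligand was near the limit of detection in 168FARN. It passed the filter for low counts only through the sgPrrx1 libraries, where it was highest, so its p-values add little to its counts.

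In LLC1, Bmp2 appeared with WT wound fibroblasts and was almost lost with sgPrrx1 fibroblasts. Its counts were 0, 0 and 0 alone, 217, 196 and 238 with WT fibroblasts and 11, 14 and 2 with sgPrrx1 fibroblasts, and no group overlapped another. Bmp2 passed the filter for low counts only through its WT libraries, so its p-values add little to these counts. With WT fibroblasts it reached 2.83 ± 0.326 CPM (SD, n = 3), at least 75.3-fold above the limit of 3 counts per library in cells grown alone (edgeR adjusted p = 0.00162), and that call held in 9 of 9 fits with 1 library left out. With sgPrrx1 fibroblasts it was at 0.101 ± 0.0652 CPM, at least 2.68-fold above that limit (edgeR adjusted p = 0.0365). From WT to sgPrrx1 fibroblasts it fell by a log2 difference of -4.73 ± 0.44 (edgeR adjusted p = 0.0465). In that comparison 0.0544% of all genes passed. The rise with sgPrrx1 fibroblasts lost its call in 8 of 9 fits with 1 library left out, all but that without sgPrrx1 replicate 3 (edgeR adjusted p up to 0.125). It was also lost with the replicate number as a block (edgeR adjusted p = 0.0813), where same-numbered alone and sgPrrx1 libraries deviated together. The block left 1 of 9 members called in that comparison, Id1. With 1 library left out, the fall from WT to sgPrrx1 lost its call in 7 of 9 fits, all but those without alone replicate 2 or sgPrrx1 replicate 3 (edgeR adjusted p up to 0.324). Without sgPrrx1 replicate 3, which had the lowest of the sgPrrx1 counts, the rise had an edgeR adjusted p of 0.0029 and the fall was -4.41 ± 0.31 (edgeR adjusted p = 0.0036).

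The fibroblast markers did not move as a list with Bmp2 in LLC1, but some of them did. Col1a2, a type I collagen chain, was at 0.0296 CPM alone, 8.68 with WT fibroblasts and 0.264 with sgPrrx1 fibroblasts. Fbln2, a matrix protein, was at 0.0331, 6.08 and 0.655. Dcn rose with WT fibroblasts too but stayed up with sgPrrx1 fibroblasts, at 2.85, 30.1 and 21.4 CPM. Of the 16 fibroblast markers, 12 were tested, and 4 rose (Col1a1, Col1a2, Dcn and Fbln2) and 3 fell (Col3a1, Col6a1 and Pdgfrb) with WT fibroblasts. There 8.83% of all genes were called. With sgPrrx1 fibroblasts 3 were higher and 1 lower than alone, where 4.32% of all genes were called. From WT to sgPrrx1 fibroblasts 3 fell (Col1a1, Col1a2 and Fbln2), where 0.0544% of all genes were called. The summed list ran from 1988 to 2095 CPM alone, 1467 to 1511 with WT and 1872 to 1954 with sgPrrx1 fibroblasts, most of it Col3a1, while Fap, Thy1 and Mfap5 had at most 6 counts in any LLC1 library. The summed epithelial markers also moved with Bmp2 at a low level, at 0 to 0.262 CPM alone, 0.633 to 0.969 with WT and 0.0188 to 0.223 with sgPrrx1 fibroblasts, and of them Krt18, the one tested, rose with WT fibroblasts. Of the 2 myofibroblast markers tested, Myl9 rose with WT fibroblasts, from 0 to 0.253 CPM, and was at 0.0196 with sgPrrx1 fibroblasts. The part of these cell types in the Bmp2 result was not tested. In libraries of a sorted population, fewer cells of a type and less RNA per cell cannot be told apart.

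Bmp4, the ligand that LLC1 made by itself, was lower in both cocultures. It stood at 12.4, 13.1 and 13.3 CPM alone, at 8.43, 7.96 and 9.71 with WT fibroblasts and at 7.42, 8.16 and 11.2 with sgPrrx1 fibroblasts. Every coculture library was below every library grown alone. The log2 difference was -0.57 ± 0.16 with WT fibroblasts (edgeR adjusted p = 0.0655) and -0.54 ± 0.16 with sgPrrx1 fibroblasts (edgeR adjusted p = 0.102), so neither passed the test over all 9 libraries. Without sgPrrx1 replicate 3 the values were -0.56 ± 0.08 (edgeR adjusted p = 0.00111) and -0.73 ± 0.10 (edgeR adjusted p = 0.00139), and both passed.

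Grem1 (chr2:113748675-113758648), the BMP antagonist, rose in 168FARN with either fibroblast and was highest beside sgPrrx1 CAFs. It stood at 597, 599 and 600 CPM alone, at 765, 779 and 762 with WT CAFs and at 956, 975 and 956 with sgPrrx1 CAFs. The 3 groups did not overlap. The rise was 0.36 ± 0.02 on the log2 scale with WT CAFs (edgeR adjusted p = 1.62e-08) and 0.68 ± 0.02 with sgPrrx1 CAFs (edgeR adjusted p = 2.04e-10), and sgPrrx1 stood above WT by 0.32 ± 0.02 (edgeR adjusted p = 6.69e-08). All 3 calls held in each of the 9 fits with 1 library left out.

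In LLC1, Grem1 was at 66.3, 72.8 and 51.5 CPM alone, at 112, 121 and 105 with WT fibroblasts and at 136, 134 and 29.5 with sgPrrx1 fibroblasts. The WT libraries lay above all those grown alone, and the third sgPrrx1 library lay below every other LLC1 library. Over all 9 libraries the log2 differences from cells grown alone, 0.83 ± 0.47 with WT and 0.65 ± 0.47 with sgPrrx1 fibroblasts, did not pass the test (edgeR adjusted p = 0.335 and 0.423). Without that library they were 0.84 ± 0.11 (edgeR adjusted p = 0.000579) and 1.10 ± 0.12 (edgeR adjusted p = 0.000669), and both passed. sgPrrx1 against WT did not pass either way, at -0.17 ± 0.47 with all libraries and 0.26 ± 0.12 without it, and with limma voom and sample weights it was 0.26 (adjusted p = 0.0489).

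Of the receptors, Bmpr2 moved in 168FARN with WT CAFs and Bmpr1a by less. Bmpr2 (chr1:59764279-59878081), the type II receptor, rose in 168FARN with WT CAFs from 71.5, 68.8 and 69.7 CPM to 87.6, 91.3 and 92.1 CPM, and was at 68.1, 72.5 and 69.6 CPM with sgPrrx1 CAFs. The WT libraries lay above all others and the remaining groups overlapped. The rise was 0.37 ± 0.03 on the log2 scale (edgeR adjusted p = 2.42e-06) and the fall from WT to sgPrrx1 -0.37 ± 0.03 (edgeR adjusted p = 3.38e-06). Between sgPrrx1 CAFs and cells alone the log2 difference was 0.00 ± 0.03, with a 95% interval from -0.07 to 0.08. Bmpr1a (chr14:34411061-34503336), a type I receptor, stayed between 159 and 173 CPM in 168FARN and passed the test between sgPrrx1 and WT CAFs, by 0.09 ± 0.03 (edgeR adjusted p = 0.021). That call was lost without scaling factors (0.04, edgeR adjusted p = 0.299) and without WT replicate 1 (edgeR adjusted p = 0.0721), sgPrrx1 replicate 1 (edgeR adjusted p = 0.0618) or sgPrrx1 replicate 2 (edgeR adjusted p = 0.0588). With an offset for transcript length, chosen after seeing the data, Bmpr1a was at 0.22 there and also passed for WT against alone, at -0.16 instead of -0.05.

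No difference of either receptor passed the edgeR or DESeq2 test in LLC1 over all libraries, where the unadjusted edgeR p was 0.404 or more, or the edgeR test without sgPrrx1 replicate 3. With limma voom and sample weights, Bmpr2 passed for WT against alone (-0.36, adjusted p = 0.026) and for sgPrrx1 against WT (0.33, adjusted p = 0.0483). Bmpr1a was at 93.1, 99.1 and 78.6 CPM alone, 91.2, 90.6 and 92.5 with WT fibroblasts and 93.4, 96.5 and 39.6 with sgPrrx1 fibroblasts. Bmpr2 was at 119, 139 and 80.8 CPM alone, 91.7, 108 and 90.2 with WT and 118, 120 and 34.3 with sgPrrx1 fibroblasts. The third sgPrrx1 library lay below all the other 8 in both receptors. Without it, the log2 difference of WT from alone was 0.03 ± 0.07 for Bmpr1a and -0.21 ± 0.17 for Bmpr2.

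Smad6 (chr9:63953076-64022085), the inhibitory Smad, rose in 168FARN and fell in LLC1 with WT fibroblasts. In 168FARN its levels were 2.71, 2.83 and 2.76 CPM alone, 4.08, 4.73 and 4.83 with WT CAFs and 4.07, 3.53 and 3.47 with sgPrrx1 CAFs. Both cocultures lay above cells alone and all sgPrrx1 values lay below all WT values. The log2 differences were 0.71 ± 0.11 for WT (edgeR adjusted p = 0.000203) and 0.41 ± 0.11 for sgPrrx1 (edgeR adjusted p = 0.012). The step between them, -0.30 ± 0.11 (edgeR adjusted p = 0.0332), lost its call without WT replicate 2 or 3 or sgPrrx1 replicate 2 or 3 (edgeR adjusted p = 0.0966 to 0.103) and with DESeq2 (adjusted p = 0.058).

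In LLC1, Smad6 was at 3.92, 3.43 and 4.03 CPM alone, 2.11, 2.33 and 2.25 with WT fibroblasts and 3.02, 2.50 and 4.01 with sgPrrx1 fibroblasts. The WT libraries were the lowest and the sgPrrx1 libraries overlapped with cells alone. The fall with WT fibroblasts was -0.77 ± 0.18 on the log2 scale (edgeR adjusted p = 0.0386). It lost its call without any 1 library other than sgPrrx1 replicates 2 and 3, with an edgeR adjusted p up to 0.141. Without sgPrrx1 replicate 3 it was -0.75 ± 0.13 (edgeR adjusted p = 0.00182), and the difference of sgPrrx1 from alone, -0.26 ± 0.18 over all libraries, was -0.45 ± 0.14 and passed (edgeR adjusted p = 0.0438). The lines differed in this change by a log2 difference of 1.48 ± 0.20 (edgeR adjusted p = 6.52e-05), and that test kept its call in each of the 18 fits with 1 library left out.

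All 3 Id genes fell in 168FARN with WT CAFs and rose from WT to sgPrrx1 CAFs. Id1 (chr2:152736251-152737410) went from 75.4, 77.6 and 76.7 CPM alone to 45.8, 45.6 and 39.5 with WT CAFs and was at 76.8, 77.1 and 76.3 with sgPrrx1 CAFs. Id2 (chr12:25093799-25096092) went from 40.6, 41.8 and 43.0 to 13, 12.8 and 12.7 and was at 26.8, 26.8 and 24.9 with sgPrrx1 CAFs. Id3 (chr4:136143822-136145392) went from 76.3, 75.9 and 71.6 to 38.0, 39.6 and 33.5 and was at 53.1, 53.1 and 52.7 with sgPrrx1 CAFs. In each gene, every WT library was below every other, and with sgPrrx1 CAFs Id1 overlapped with cells alone while Id2 and Id3 lay between the other groups.

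The log2 changes with WT CAFs were -0.81 ± 0.05 for Id1 (edgeR adjusted p = 1.08e-07), -1.70 ± 0.04 for Id2 (edgeR adjusted p = 8.5e-11) and -1.01 ± 0.05 for Id3 (edgeR adjusted p = 3.78e-08). From WT to sgPrrx1 CAFs they rose by 0.81 ± 0.05 (edgeR adjusted p = 1.71e-07), 1.03 ± 0.04 (edgeR adjusted p = 1.1e-08) and 0.51 ± 0.05 (edgeR adjusted p = 9.36e-06). Beside sgPrrx1 CAFs, Id2 was still lower than alone by -0.68 ± 0.04 and Id3 by -0.49 ± 0.05, whereas the log2 difference of Id1 from cells alone was 0.00 ± 0.05, with a 95% interval from -0.10 to 0.11. Each of the 8 calls on Id genes held in 9 of 9 fits with 1 library left out.

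These calls stood among many in 168FARN. With WT CAFs 7 of 8 tested members passed the test, where 64.1% of all genes did. With sgPrrx1 CAFs against cells alone 5 of 8 passed and 49.7% of all genes, and between sgPrrx1 and WT CAFs 7 of 8 and 60.0%. The median log2 change of the tested members was 0.16, 0.02 and 0.42 in these comparisons, beside medians over all genes of 0.01, 0.00 and -0.03. All 3 Id transcripts are short, 1160 to 1278 bases, and fell in the shortest of the 5 length bins, in which the median log2 change with WT CAFs was -0.16 and 46.1% of genes were lower, against 0.14 and 18.5% in the longest bin. With the offset for transcript length, the changes with WT CAFs were -0.63 for Id1, -1.54 for Id2 and -0.85 for Id3. From WT to sgPrrx1 CAFs, where the median of the shortest bin was 0.21, the changes of Id1, Id2 and Id3 were 0.59, 0.83 and 0.32 with the offset instead of 0.81, 1.03 and 0.51. All 6 still passed the test.

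The fibroblast markers moved in 168FARN with the same groups. Their summed level was 298 to 306 CPM alone, 1361 to 1446 with WT CAFs and 393 to 403 with sgPrrx1 CAFs. Of 16 markers 14 were tested, and 13 rose with WT CAFs, where 64.1% of all genes were called. From WT to sgPrrx1 CAFs 13 fell, where 60.0% of all genes were called. With sgPrrx1 CAFs against alone 8 were higher and 2 lower, where 49.7% of all genes were called. Dcn, among those higher, was at 0.275 CPM alone, 92.8 with WT and 43.3 with sgPrrx1 CAFs. Col1a2 was at 0.103, 148 and 12.9 CPM. Postn, a matricellular protein of activated fibroblasts, was at 0 alone, 22.1 CPM with WT CAFs and 0.0223 with sgPrrx1 CAFs. Thy1 was at 0 counts alone and with sgPrrx1 CAFs. The 4 myofibroblast markers, which include smooth muscle actin (Acta2), summed to 0.358 to 0.493, 18.4 to 19.9 and 0.48 to 0.869 CPM. Of 3 endothelial markers tested, Cdh5 rose, from 0.277 to 5.94 and 3.90 CPM, and Pecam1 and Tie1 did not pass. All 3 epithelial markers tested (Krt8, Krt7 and Krt19) rose with WT CAFs. Krt19 went from 0 to 3.09 CPM and was at 0 with sgPrrx1 CAFs. Krt8 was at 331, 372 and 419 CPM. From WT to sgPrrx1 CAFs Krt8 was called higher, and Krt19 and Krt7 lower. The summed epithelial markers were at 373 to 400 CPM with WT and 427 to 432 with sgPrrx1 CAFs. Cd68 fell, from 23.9 to 14.8 and 14.0 CPM, with Ptprc and Cd3e at 0 in every 168FARN library. Their part in the Id, Grem1, Bmpr2 and Smad6 results was not tested.

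**Figure D2:**
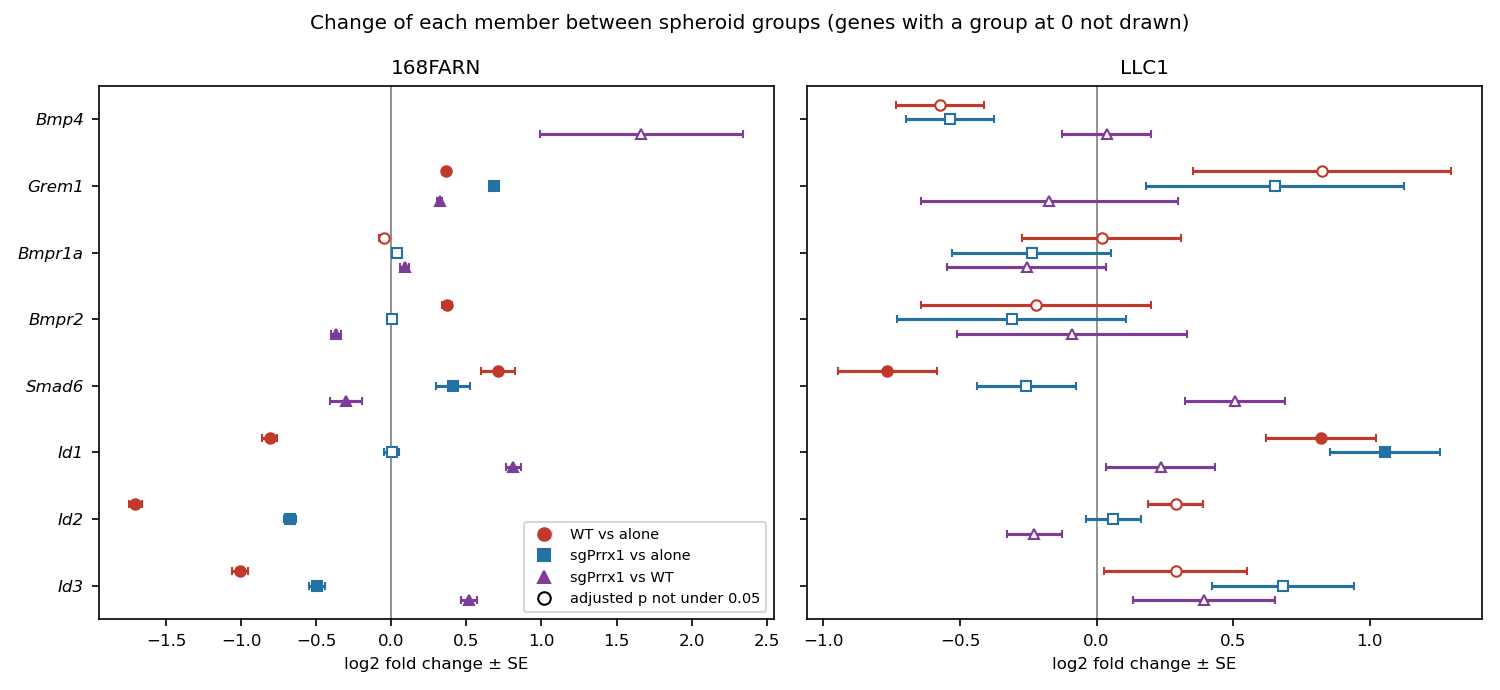
Log2 fold change ± SE of the members in the 3 comparisons of each line, from the edgeR fit of 9 libraries a line. Filled marks passed an adjusted p of 0.05, and genes with a group at 0 counts are not drawn. In 168FARN the Id genes lie left of 0 with WT CAFs and right of 0 for sgPrrx1 against WT, and in LLC1 Id1 lies right of 0 in both cocultures.

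In LLC1 Id1 rose, and it was the Id gene that passed the test over all 9 libraries. Id1 was at 20.6, 20.2 and 22.4 CPM alone, 37.2, 34.5 and 39.9 with WT fibroblasts and 37.0, 34.5 and 59.9 with sgPrrx1 fibroblasts. Every coculture library was above every library grown alone. The rise was 0.82 ± 0.20 on the log2 scale with WT (edgeR adjusted p = 0.0414) and 1.06 ± 0.20 with sgPrrx1 fibroblasts (edgeR adjusted p = 0.0298). Each call was lost without any 1 library other than sgPrrx1 replicates 2 and 3, with an edgeR adjusted p up to 0.152 and 0.142. Without sgPrrx1 replicate 3, the highest Id1 library, the values were 0.83 ± 0.07 (edgeR adjusted p = 0.000103) and 0.77 ± 0.08 (edgeR adjusted p = 0.00056). The summed immune markers moved with the same groups, from 15.7 to 17.0 CPM alone to 35.9 to 37.7 with WT and 36.0 to 63.6 with sgPrrx1 fibroblasts, the highest in replicate 3 and 38.5 the highest without it. Nearly all of this was Cd68, a lysosomal protein, while Ptprc, Adgre1 and Cd3e, which define leukocytes, macrophages and T cells, had at most 3 counts in any LLC1 library.

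Id2 in LLC1 was at 20.9, 21.3 and 20.8 CPM alone, 23.6, 25.6 and 28.0 with WT fibroblasts and 23.0, 22.8 and 20.0 with sgPrrx1 fibroblasts. Id3 was at 35.2, 32 and 36.8 CPM alone, 43.9, 41.0 and 42.2 with WT and 41.6, 41.0 and 84.5 with sgPrrx1 fibroblasts. The WT libraries of both genes lay above all those grown alone. Neither passed the test over all 9 libraries, with log2 differences for WT of 0.29 ± 0.10 for Id2 (edgeR adjusted p = 0.118) and 0.29 ± 0.26 for Id3 (edgeR adjusted p = 0.561). Without sgPrrx1 replicate 3 both passed, at 0.30 ± 0.06 (edgeR adjusted p = 0.00586) and 0.30 ± 0.07 (edgeR adjusted p = 0.00648). With sgPrrx1 fibroblasts against alone, Id3 was at 0.68 ± 0.26 over all libraries (edgeR adjusted p = 0.164) and passed without replicate 3, at 0.26 ± 0.07 (edgeR adjusted p = 0.0315), while Id2 passed neither way. No Id gene passed between sgPrrx1 and WT fibroblasts in LLC1 by edgeR or DESeq2, where 0 of the 3 had an unadjusted edgeR p under 0.05, nor by edgeR without that library. Without it the log2 differences were -0.06 ± 0.08 for Id1, -0.17 ± 0.07 for Id2 and -0.04 ± 0.07 for Id3.

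Over all LLC1 libraries 3 of 9 tested members passed with WT fibroblasts, where 8.83% of all genes did, 2 of 9 with sgPrrx1 fibroblasts, where 4.32% did, and 1 of 9 between them, where 0.0544% did. Without sgPrrx1 replicate 3 these counts were 7, 6 and 1 of 9, and the shares of all genes 44.2%, 26.7% and 5.69%. The median log2 change of the tested members over all 9 libraries was 0.29, 0.06 and -0.09, beside -0.02, -0.01 and 0.02 over all genes. In LLC1 too, the changes ran with transcript length, from a median of 0.16 in the shortest bin to -0.17 in the longest for WT against alone, and with the length offset Id1 rose by 0.67 with WT fibroblasts and still passed, while Id2 was at 0.15 and Id3 at 0.16 and neither passed. With sgPrrx1 fibroblasts against alone, Id1 was at 0.78 with the offset and passed, and Id3 at 0.40, where it gained a call (edgeR adjusted p = 0.0328).

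**Figure D3:**
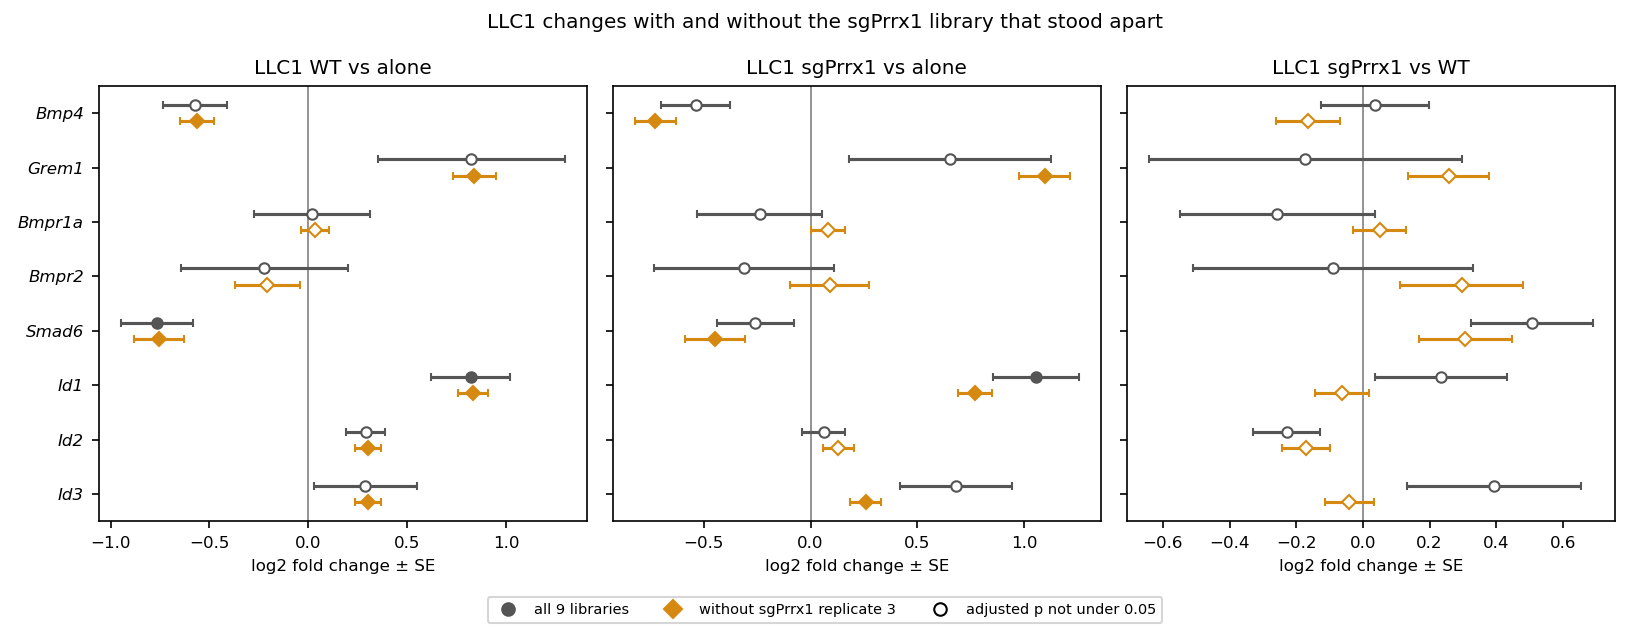
Log2 fold change ± SE of the members in LLC1 with all 9 libraries (circles) and without sgPrrx1 replicate 3 (diamonds), filled where the adjusted p was under 0.05. The estimates for WT against alone stay close while their SE shrinks, and Bmp4, Bmpr1a, Bmpr2, Grem1, Id1 and Id3, none of which passed, change sign in the panel of sgPrrx1 against WT.

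**Figure D4:**
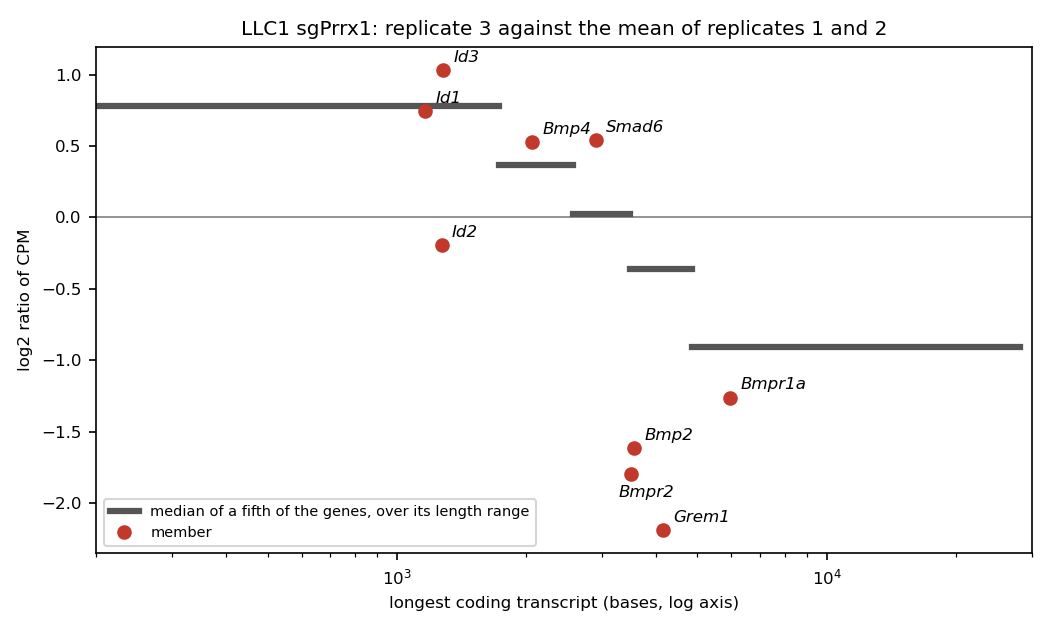
Log2 ratio of the CPM of LLC1 sgPrrx1 replicate 3 to the mean of replicates 1 and 2 (vertical axis) against the length of the longest coding transcript (horizontal, log axis). Grey bars are medians of 5 equal bins of the genes, which go from 0.78 to -0.91, and red points are the members, from Id3 at 1.03 to Grem1 at -2.19.

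The members followed the length pattern of that library in part. The short transcripts of Id3 and Id1 were higher in it, at log2 ratios of 1.03 and 0.75 to the mean of the other 2 sgPrrx1 libraries, but Id2, of nearly the same length, was at -0.20. The longer Grem1, Bmpr2, Bmp2 and Bmpr1a were lower in it, at -2.19, -1.80, -1.62 and -1.26. No reason for this library's profile was tested.

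The difference between the lines was tested directly, as the 168FARN change minus the LLC1 change in a fit of all 18 libraries. For WT against alone, 5 of 9 members differed, where 29.4% of all genes did. The count holds no answer for Bmp2, whose 168FARN groups alone and WT were both at 0, which fixed its edgeR p near 1 (DESeq2 adjusted p = 6.64e-06). All 3 Id genes were among those that differed, at -1.63 ± 0.20 for Id1 (edgeR adjusted p = 2.47e-05), -2.00 ± 0.11 for Id2 (edgeR adjusted p = 7.06e-09) and -1.30 ± 0.27 for Id3 (edgeR adjusted p = 0.00192), with Smad6 and Bmp4 in the opposite direction. With the length offset Id1, Id2 and Id3 were at -1.31, -1.71 and -1.02, and all still passed. For sgPrrx1 against alone the same number differed, 5 of 9, where 12.1% of all genes did, with -1.03 ± 0.20 for Id1, -0.72 ± 0.11 for Id2 and -1.15 ± 0.27 for Id3. Bmp2, with cells alone at 0 counts in both lines, again had an edgeR p near 1 and gave no answer. With the length offset, Id2 lost its call there (-0.63, edgeR adjusted p = 0.0512). For sgPrrx1 against WT, 3 of 9 differed, where 19.3% did: Id2 at 1.27 ± 0.11 (edgeR adjusted p = 2.5e-06), Smad6 at -0.79 ± 0.20 (edgeR adjusted p = 0.0131) and Id1 at 0.60 ± 0.20 (edgeR adjusted p = 0.0488), the last called with LLC1 sgPrrx1 replicate 3 left out (0.90 ± 0.10) but in none of the other 17 fits with 1 library left out. The Id3 difference in that comparison was 0.15 ± 0.27, with a 95% interval from -0.42 to 0.72, and without LLC1 sgPrrx1 replicate 3 it was 0.58 ± 0.10 and passed (edgeR adjusted p = 0.000146). Grem1 did not differ by the test in any of the 3, at -0.47 ± 0.51, 0.03 ± 0.51 and 0.50 ± 0.51, whereas without that library it did for WT (-0.51 ± 0.11, edgeR adjusted p = 0.00123) and for sgPrrx1 against alone (-0.42 ± 0.12, edgeR adjusted p = 0.0155). Without it 7, 6 and 7 of 9 members differed in the 3 comparisons, where 52.5%, 28.0% and 44.5% of all genes did, and Bmpr2 was among them for WT against alone (0.55 ± 0.18) and for sgPrrx1 against WT (-0.64 ± 0.18).

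The rest of the pathway was read from 59 further BMP genes, of which 37 were tested in 168FARN and 33 in LLC1. With WT CAFs 23 of the 37 were higher in 168FARN and 6 lower, with a median log2 change of 0.40 beside 0.01 over all genes, where 64.1% of all genes were called in either direction. With sgPrrx1 CAFs against alone 14 were higher and 7 lower, and between sgPrrx1 and WT CAFs 3 were higher and 20 lower, with a median of -0.21 beside -0.03. The shares of all genes called in these were 49.7% and 60.0%, so that the count between sgPrrx1 and WT was near that of all genes. In LLC1, 2 of 33 were higher and 1 lower with WT fibroblasts, near the 8.83% of all genes. With sgPrrx1 fibroblasts 1 was higher than alone, where 4.32% of all genes were called. Between sgPrrx1 and WT fibroblasts 0 passed by edgeR, where 0.0544% of all genes did. There 6 of the 33 had an unadjusted edgeR p under 0.05. Without LLC1 sgPrrx1 replicate 3, 4 of 35 tested were higher and 8 lower with WT, 4 higher and 1 lower with sgPrrx1 fibroblasts, and 2 higher and 1 lower between them, where 44.2%, 26.7% and 5.69% of all genes were called in that fit.

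With WT CAFs 8 of 11 tested antagonists and modulators rose in 168FARN and 1 fell, where 64.1% of all genes were called. Nbl1, a gremlin-family antagonist, rose by 2.30 ± 0.13 on the log2 scale, and Fst, encoding follistatin, by 1.26 ± 0.11. From WT to sgPrrx1 CAFs 8 of the 11 fell, where 60.0% of all genes were called, the opposite direction to that of Grem1 in the same comparison.

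Among 7 tested receptors and coreceptors, 5 rose with WT CAFs and 1 fell, beside the same 64.1% of all genes. Those that rose included Acvr1, a type I receptor, at 0.76 ± 0.17, the endothelial coreceptor Eng at 0.40 ± 0.05 and Acvrl1 at 0.43 ± 0.06. Acvr2a fell by 0.21 on the log2 scale. Inside the cell, Smad7, the other inhibitory Smad, rose by 1.41 ± 0.05 with WT CAFs and by 1.19 ± 0.05 with sgPrrx1 CAFs, from 27.7 CPM alone to 73.6 and 63.0. The signal-carrying Smad5 rose by 0.21 ± 0.04 with WT CAFs, and Smad1 did not pass the test (0.17 ± 0.07, edgeR adjusted p = 0.0578). Smad7 is also a target of TGF-beta signalling.

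All 7 other tested target genes changed in 168FARN with WT CAFs, 5 upward and 2 downward, again beside 64.1% of all genes. Msx2 and Dlx3, homeobox genes, rose by 1.01 ± 0.12 and 2.15 ± 0.24, and Runx2, a bone transcription factor, by 0.42 ± 0.03, while Atoh8 fell by -2.83 ± 0.19. Atoh8 thus went with the Id genes in 168FARN, from 5.34 CPM alone to 0.744 with WT and 1.78 with sgPrrx1 CAFs. In LLC1 Atoh8 rose, by 1.53 ± 0.35 with WT (edgeR adjusted p = 0.0341) and by 2.45 ± 0.36 with sgPrrx1 fibroblasts (edgeR adjusted p = 0.0124), and its level was 0.453 CPM alone, 1.31 with WT and 2.49 with sgPrrx1 fibroblasts. The antagonist Nbl1 rose in LLC1 by 3.86 ± 0.46 and the modulator Bmper fell by -0.98 ± 0.20, both with WT fibroblasts. With sgPrrx1 replicate 3 left out, Atoh8 was at 1.54 with WT and 2.09 with sgPrrx1 fibroblasts, and with WT fibroblasts Nbl1 was at 3.87 and Bmper at -0.97, and all 4 passed.

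**Figure D5:**
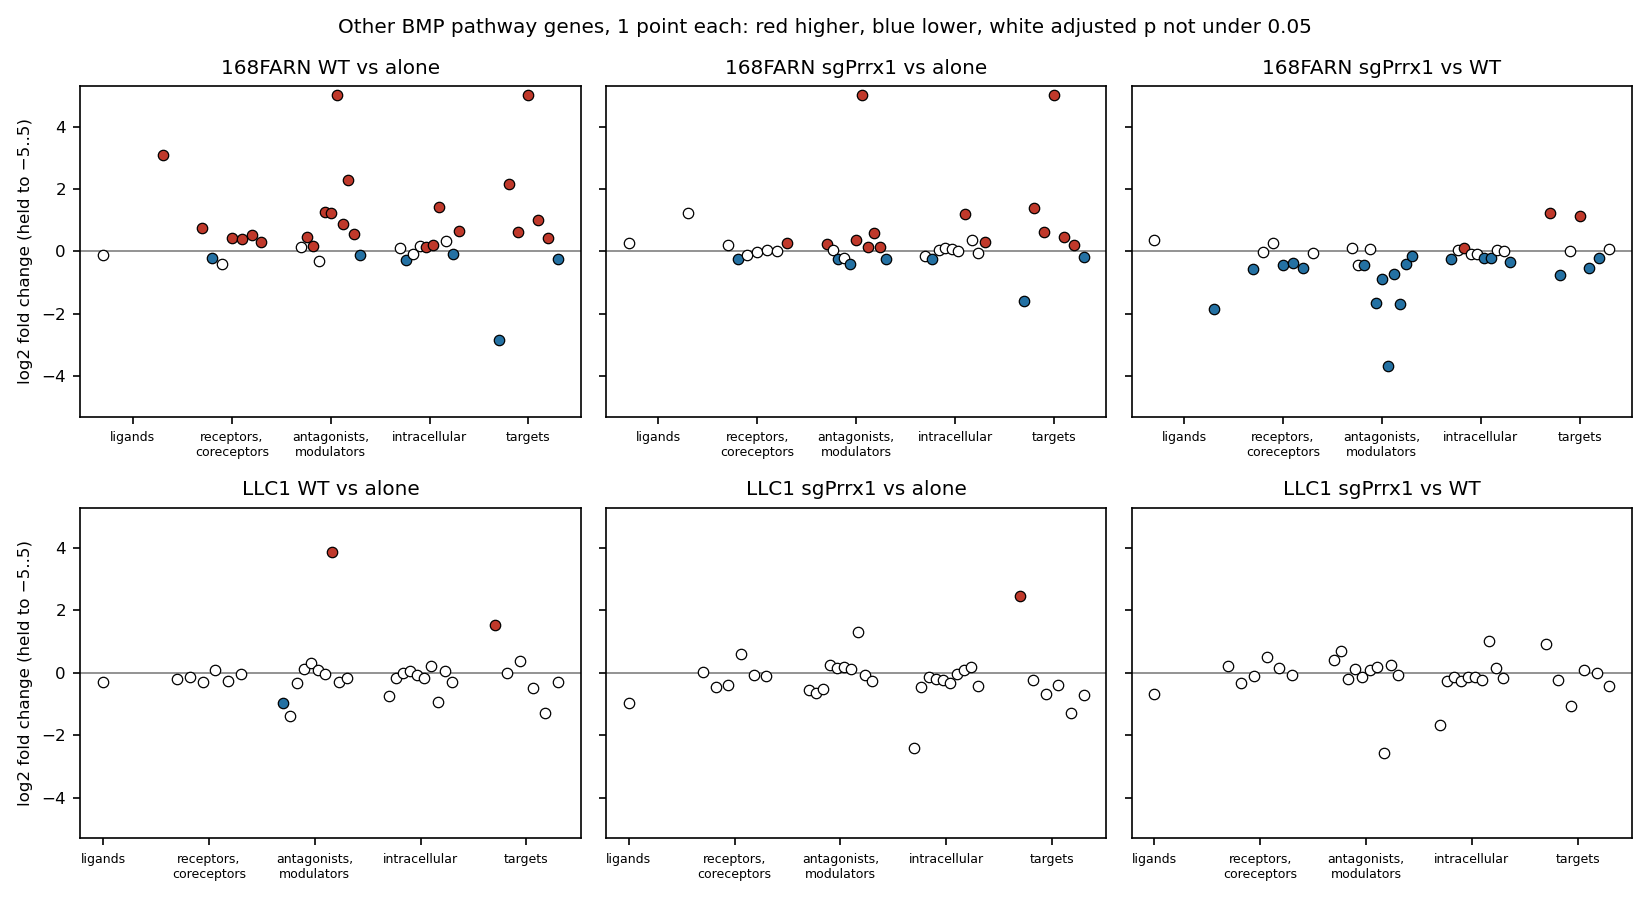
Log2 fold change of the other tested BMP pathway genes by role, 1 point a gene, in the 3 comparisons of each line (values beyond 5 are drawn at 5). Red points were higher, blue lower and white did not pass an adjusted p of 0.05. In 168FARN the upper-left panel holds 23 red and 6 blue points and the upper-right panel 3 red and 20 blue, while the LLC1 panels are mostly white.

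Of the E proteins that ID proteins hold, 3 were tested in 168FARN. Tcf3 was higher in 168FARN with WT CAFs by 0.16 ± 0.03 on the log2 scale, and Tcf4 and Tcf12 did not pass the test there, at 0.01 ± 0.03 and 0.07 ± 0.03. With sgPrrx1 CAFs against alone Tcf3 was higher by 0.12 ± 0.03 and Tcf4 lower, at -0.15 ± 0.03. From WT to sgPrrx1 CAFs Tcf4 fell by -0.16 ± 0.03 and Tcf12 by -0.14 ± 0.03. The shares of all genes called in these comparisons were 64.1%, 49.7% and 60.0%. In LLC1 the same 3 genes were tested and none passed the edgeR test in any comparison over all libraries. There 8.83%, 4.32% and 0.0544% of all genes were called.

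The genes whose pattern was most like those of the Id genes were of other kinds. Over the 9 libraries of 168FARN, and among 10601 genes with a mean of at least 100 counts, the highest Pearson r of log2 CPM with Id1 were those of Mrpl28, a mitochondrial ribosomal protein (0.999), and Srxn1 (0.997). With Id2 they were Rabl2 (0.999) and Bid, a cell death gene (0.998), and with Id3 the highest shown is Ptges2 (0.998). With Grem1 it is Ifit3b, an interferon-induced gene (0.999). All these points share 3 groups of 3 libraries, so genes with the same order of groups correlate highly, and the values are a description. In LLC1 the genes most like Id1 were Txnl4b (0.995) and Plaur (0.993) over 9 libraries and Cstf3 (0.999) and Pigh (0.996) over the 8 without sgPrrx1 replicate 3, so they changed with that library.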

How the data were processed

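The 18 mouse libraries (TruSeq RNA v2, paired ends, HiSeq) were trimmed with Trimmomatic, aligned to mm10 with STAR and counted with HTSeq by the authors, who deposited whole-number read counts per gene, 1 table a line. Gene annotation and strand setting were not given in the sources used here, so overlapping or antisense genes cannot be told apart. ComBat-seq correction is stated after the human data, and whether these counts had it is not given in the sources used here. Filtering (filterByExpr) and TMM scaling were followed by edgeR 4.0.16 quasi-likelihood tests (R 4.3.3), 2-sided, over 9 libraries a line (13540 and 12873 genes tested) or all 18 (14365 genes), p-values adjusted by Benjamini-Hochberg over all genes tested (threshold 0.05). SE is the log2 fold change divided by the root of F. CPM used TMM-scaled totals of the genes kept, and per-length levels and length bins the longest coding transcript of GENCODE vM1. Same-numbered LLC1 alone and sgPrrx1 libraries had correlated deviations from their group means (r = 0.118, 0.209 and 0.371); the labels name no shared source. Scripts were tested on simulated counts. DESeq2 1.42.0, limma 3.58.1 and other filters and scalings were alternatives. The members and gene lists were chosen with earlier results of these data known. The genes named are the members, genes of those lists, and for 6 members the 2 genes of highest correlation a line. A few genes that the rule names are not reported here.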

Additional observations from a re-analysis of the deposited data

Results flagged for a closer look

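13 values were listed because the change in 168FARN differed from that in LLC1 by the test of the difference itself (168FARN minus LLC1, log2 scale, edgeR on 18 libraries), and different fibroblasts were used in the lines. For WT fibroblasts against cells alone they were Bmp4 at 6.15, Smad6 at 1.48, Id1 at -1.63, Id2 at -2.00 and Id3 at -1.30. For sgPrrx1 fibroblasts against cells alone they were Bmp4 at 7.79, Smad6 at 0.69 (edgeR adjusted p = 0.0377), Id1 at -1.03, Id2 at -0.72 and Id3 at -1.15. For sgPrrx1 against WT fibroblasts they were Smad6 at -0.79, Id1 at 0.60 and Id2 at 1.27. The Bmp4 values rest on 168FARN cells alone at 0 counts and depend on the prior count of the fit, so they carry a direction and no size. The call on Id1 for sgPrrx1 against WT was lost in 17 of 18 fits with 1 library left out (edgeR adjusted p up to 0.134), all but that without LLC1 sgPrrx1 replicate 3, where the value was 0.90. That on Smad6 for sgPrrx1 against alone was lost in 14 of 18 (edgeR adjusted p up to 0.098), all but those without LLC1 alone replicate 2, WT replicate 1 or 2, or sgPrrx1 replicate 3, where without the last it was 0.85. The remaining values kept their calls in all 18 of these fits, and Id2 for sgPrrx1 against alone lost its call with the transcript length offset (-0.63, edgeR adjusted p = 0.0512).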

How the results depend on the processing

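Of 1813 member values under alternatives, 1618 kept direction and side of the threshold, 97 lost their call, 59 gained one and 39 changed sign, 35 of them with no call in either fit. In 168FARN the counts of members and of genes called stayed within 1.5 times those given.

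In LLC1 the counts depended on the fit, and where no construction shows it the cause was not tested. For WT against alone, members called (3) and genes called (1137) were 5 and 2276 with DESeq2, 8 and 7549 with limma voom and sample weights, 7 and 5167 with only the 2 groups compared, and 1 to 7 and 273 to 5779 with 1 library left out. Genes called with the length offset were 2352. For sgPrrx1 against alone (2 and 556), they were 6 and 6183 with limma voom, 0 and 27 with only the 2 groups, 4 and 1897 with the length offset, and 0 to 6 and 52 to 3495 with 1 library left out, with 1944 genes by DESeq2 and 1 member with at least 10 counts in every library. For sgPrrx1 against WT (1 and 7), members called were 4 with limma voom, and 0 without scaling factors or with at least 10 counts in every library, which leaves Bmp2 untested. Genes called were 501 with DESeq2, 4681 with limma voom, 11 with only the 2 groups, 23 with the length offset and 2 with the count minimum. With 1 library left out the ranges were 0 to 1 and 3 to 745, the highest without sgPrrx1 replicate 3.

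For the difference between lines, WT against alone gave 8 members and 8714 genes with limma voom, and 3545 to 7679 genes with 1 library left out. sgPrrx1 against alone gave 2616 genes with DESeq2, 5915 with limma voom, 2915 with the length offset and 1280 to 4099 with 1 library left out. sgPrrx1 against WT gave 5 members with DESeq2, 7 and 7886 genes with limma voom, 6 members with the length offset, and 2 to 7 members and 2170 to 6517 genes with 1 library left out.

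Signs changed mostly where values were near 0 or LLC1 sgPrrx1 replicate 3 was left out or weighed less. In 168FARN sgPrrx1 against alone, Bmpr2 was -0.022 without scaling factors, -0.0014 without the filter and -0.022 to 0.022 with 1 library left out, and Id1 was -0.021, -0.00061 and -0.010 to 0.013, and -0.040 with the length offset. In LLC1 sgPrrx1 against WT, limma voom gave Bmp4 -0.14, Bmpr1a 0.050, Bmpr2 0.33, Grem1 0.26, Id1 -0.045 and Id3 -0.057, and 1 library left out gave Bmp4 -0.16 to 0.15, Bmpr1a -0.46 to 0.050, Bmpr2 -0.34 to 0.30, Grem1 -0.46 to 0.26, Id1 -0.062 to 0.38 and Id3 -0.042 to 0.57. Of these limma voom values, those of Bmpr2 and Grem1 passed, as did Smad6 (0.37). Bmp4 there was -0.033 without scaling factors and -0.044 with the length offset. In LLC1 WT against alone Bmpr1a was -0.036 with limma voom and -0.040 to 0.090 with 1 library left out, and in sgPrrx1 against alone 0.014 and -0.44 to 0.082, with Bmpr2 at -0.56 to 0.089 and Id2 at -0.095 with the length offset. For the difference between lines, Bmpr1a was -0.14 to 0.011 (WT against alone) and -0.047 to 0.49 (sgPrrx1 against alone), where Bmpr2 was -0.091 to 0.57 and Grem1 -0.42 to 0.33, or -0.33 with limma voom, where it passed, and Id3 was -0.024 to 0.58 (sgPrrx1 against WT), all but the limma voom value with 1 library left out.

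Same-numbered libraries correlated at -0.08 to 0.05 in 168FARN and at -0.03 to 0.37 in LLC1. All 3 pairs were over 0.1 between LLC1 alone and sgPrrx1 libraries, and in no other pair of groups, so the numbers were taken as pairs there only. With the replicate number as a block, members called were 7, 5 and 6 in 168FARN and 4, 1 and 0 in LLC1, the last with 2 genes called. That replicate block took the call from Smad6 in 168FARN sgPrrx1 against WT (-0.30), from Bmp2 in LLC1 sgPrrx1 against alone and against WT (adjusted p = 0.354 by edgeR) and from Bmpr2 between the lines grown alone (-0.23). It gave one to Bmp4 in LLC1 WT against alone (-0.58, adjusted p = 0.0441 by edgeR). The transcript length offset was chosen after seeing the data. It also took the call from Smad6 in 168FARN sgPrrx1 against WT (-0.27) and gave calls to Bmp4 in LLC1 with WT (-0.60) and sgPrrx1 fibroblasts (-0.64) against alone, and to Bmp2, Bmp4 and Bmpr1a in the difference between lines for sgPrrx1 against WT. At these depths Bmp4 in 168FARN and Bmp2 with sgPrrx1 fibroblasts in LLC1 rested on 21 counts a library or fewer.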
